A study of Homo sapiens with 28 samples.

Results

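The 60 genes described here encode the machinery of mitosis: the kinases and cyclins of mitotic entry, the spindle checkpoint, the regulators of anaphase and cohesion, the kinetochore, the chromosomal passenger complex, the mitotic kinesins, spindle assembly proteins, and factors of cytokinesis and chromosome condensation. They were taken by symbol from a table of read counts for 58278 annotated genes and were sorted into these 9 roles. Poly(A) RNA was sequenced from HCT116 cells, an established human colorectal carcinoma line, which carried luciferase and GFP and had been injected under the skin of 5-week-old male NOD SCID mice, a strain that lacks functional T and B cells. Each mouse received vehicle (Control), Palbociclib, an inhibitor of the cyclin-dependent kinases CDK4 and CDK6, Telaglenastat (spelled Telaglenestat in the sample labels), an inhibitor of glutaminase, or their Combination, daily by mouth for 23 days. The libraries comprised 3 Control, 5 Palbociclib, 4 Telaglenastat and 4 Combination tumors that remained at the end of dosing, and 12 monolayer cultures explanted from such tumors, 3 for each treatment, which were grown without drug. The sources used here do not tie a culture to a sequenced tumor. The paper describes injection on the right flank of the mice and 12 independent cell lines, 3 for each treatment. The labels do not say that replicates came from separate animals, so the p-values measure only the spread between these samples.

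Mitotic genes are transcribed in a wave late in the cell cycle. The DREAM complex holds their promoters silent in resting and early cycling cells, and MYBL2, the MuvB core and FOXM1 activate them as cells pass toward division. Inhibition of CDK4 and CDK6 keeps the retinoblastoma protein family active and holds cells before DNA replication, ahead of that wave. In bulk RNA, fewer dividing cells and less RNA per dividing cell cannot be told apart.

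All 60 genes were detected in every library, with a lowest count of 26 (CENPA) and a median count of 669.5 per gene and library, at total depths of 6273834 to 13815675 counts. Together they took 0.592% to 0.601% of counts in the Control tumors, 0.313% to 0.401% in the Palbociclib tumors, 0.643% to 0.677% in the Telaglenastat tumors, 0.294% to 0.424% in the Combination tumors and 0.78% to 1.04% in the cultures. The 7 epithelial markers summed to 1510 to 4320 CPM (counts scaled to a common library size) in the tumors, with VIL1 at 0 in every Telaglenastat tumor, while the 10 fibroblast markers summed to 173 to 210 CPM in the Control, 122 to 211 in the Palbociclib, 53.9 to 70.3 in the Telaglenastat and 110 to 155 in the Combination tumors. Of these 10, LUM was at 0 in every tumor, and DCN and THY1 in every tumor outside the Palbociclib group. In the cultures the fibroblast markers summed to 3.31 to 25 CPM and the epithelial markers to 1280 to 2400 CPM. The 6 endothelial markers summed to at most 3.29 CPM in any tumor with CDH5 at 0 throughout, and the 9 leukocyte markers to 3.5 to 34.1 CPM. The mice's own cells are murine, and the table lists human genes.

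A group and a single tumor stood apart. The 3 Telaglenastat cultures differed from one another more than the libraries of any other group, with a chi-square per degree of freedom over genes of 36.7 to 46.4 between them against 4.02 to 21.4 within the other groups. Of these, culture 2 had the steepest trend on GC content of the 12 cultures, measured as deviation from each gene's mean over the cultures. It was 0.418 log2 CPM per SD of GC content, against -0.132 to 0.178 in the cultures of the 3 other groups. None of the 60 genes passed in the comparison of Telaglenastat with Control cultures with or without culture 2. Palbociclib tumor 2 had the lowest such trend of its group (0.0968, relative to the mean over the tumors). It also had the highest mitochondrial share of its group (13.6% of counts), and 55 genes were lower with Palbociclib with or without it. The labels name no batch.

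Mitotic promoters are known for a pair of short elements close to the start, so the 100 bases before the annotated start are shown for 5 genes (RefSeq, GRCh38.p14). They are the kinesins KIF11 and KIF4A, the anaphase genes ESPL1 and CDC20 and the kinetochore gene CENPF. These are examples, and the shares over all listed promoters follow below. Capitals mark matches on either strand to the cell cycle genes homology region (CHR, TTTGAA or TTCGAA), through which the MuvB core is known to bind, and to the CCAAT box of the factor NF-Y (CCAAT).
KIF11: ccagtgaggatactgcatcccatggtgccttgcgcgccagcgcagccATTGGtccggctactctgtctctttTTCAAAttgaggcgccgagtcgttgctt
ESPL1: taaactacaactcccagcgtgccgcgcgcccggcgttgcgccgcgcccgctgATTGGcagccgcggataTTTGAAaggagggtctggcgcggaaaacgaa
KIF4A: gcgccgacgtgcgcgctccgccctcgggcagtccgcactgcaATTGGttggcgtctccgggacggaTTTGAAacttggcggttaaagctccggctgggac
CDC20: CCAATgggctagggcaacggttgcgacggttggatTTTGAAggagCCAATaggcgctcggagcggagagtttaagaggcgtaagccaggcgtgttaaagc
CENPF: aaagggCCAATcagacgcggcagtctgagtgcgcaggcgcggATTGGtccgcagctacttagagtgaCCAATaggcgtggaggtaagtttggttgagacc
These windows lie at chr10:92593030-92593129, plus strand (KIF11), chr12:53268199-53268298, plus strand (ESPL1), chrX:70290004-70290103, plus strand (KIF4A), chr1:43358881-43358980, plus strand (CDC20) and chr1:214603095-214603194, plus strand (CENPF). KIF11, ESPL1 and KIF4A each held 1 CCAAT box and 1 CHR downstream of it, with the CHR beginning at -28, -31 and -34 from the start. CDC20 held a CCAAT box on each side of its CHR at -65, and CENPF held 3 CCAAT boxes and no CHR in the bases shown.

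Windows of 250 bases before to 50 bases after the start were listed for 53 of the 60 genes. A CHR match stood in 38 of the 53 (71.7%) against 16.6% of 27305 promoters of the same length, and a CCAAT match also in 38 (71.7%) against 35.7%. Both motifs occurred together in 29 promoters (54.7%) against 6.6% of all. The E2F core (TTTCCCGC, TTTGGCGC or TTCCCGCC) was found in 7 (13.2% against 4.6%), and the forkhead core recognised by FOXM1 and its relatives (TAAACA or GTAAAC) in 8 (15.1% against 15.8%). The words TTTCCCGC and TTCCCGCC can overlap each other, as can TAAACA and GTAAAC, and a promoter with any match was counted once. A match is a description of the letters, not a measured site.

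In the Control tumors the highest level per kilobase of exon was 74.3 CPM per kb for CCNB1, which encodes cyclin B1, the activating partner of CDK1, and the lowest was 4.18 for CDCA3, which encodes a factor that promotes mitotic entry. The median of the 60 genes was 18.8 CPM per kb in the Control tumors and 33.3 in the Control cultures. The Control tumors were tightly grouped: the median over the 60 genes of log2 CPM, relative to the Control mean, was -0.01 to 0.01 in the 3 libraries. It was -1.03 to -0.57 in the 5 Palbociclib tumors, 0.23 to 0.28 in the 4 Telaglenastat tumors and -1.16 to -0.39 in the 4 Combination tumors, so that no drug-treated tumor overlapped the Control tumors in this median. The Telaglenastat separation moved with GC content. With each library's trend on GC content and gene length removed, the median log2 fold change of the 60 genes with Telaglenastat was -0.02.

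**Figure D1:**
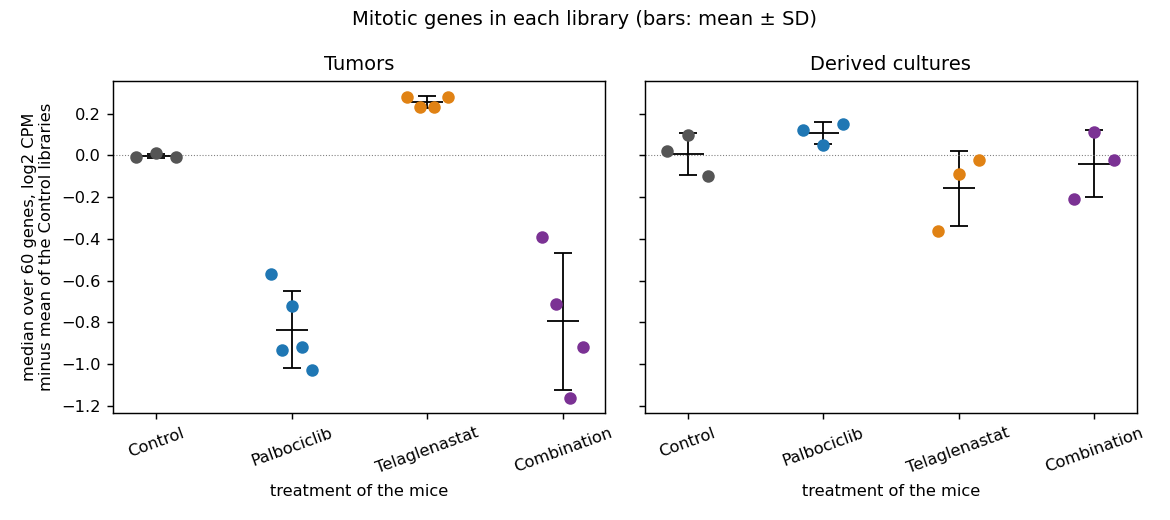
Median over the 60 mitotic genes of log2 CPM minus the mean of the Control libraries (vertical axis), for each tumor (left) and each derived culture (right), by the treatment of the mice. Points are libraries and bars show mean ± SD; Palbociclib tumors sit between -1.03 and -0.57 and Telaglenastat tumors between 0.23 and 0.28, while all cultures lie between -0.36 and 0.15.

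The effect of blocking CDK4 and CDK6 was asked by comparing Palbociclib with Control tumors. Of the 60 genes, 55 were lower at an adjusted p under 0.05 and 0 were higher, against 3.6% lower and 2.55% higher among the 14848 genes tested (edgeR quasi-likelihood test, Benjamini-Hochberg adjustment). At an unadjusted p under 0.05, 58 of the 60 passed, and DESeq2 called 55 lower and 0 higher. The median log2 fold change was -0.82, that is 1.77-fold lower, with a range of -1.34 to -0.08, against a median of 0 over all genes, and 14 of the 60 were at least 2-fold lower. Here and below, the shares of all genes at an unadjusted p, with DESeq2 and past 2-fold are not given. No result is drawn from those counts. By role the median ran from -0.44 for the checkpoint to -0.94 for the kinesins. In 57 of the 60 every Palbociclib tumor lay below every Control tumor, which held for 7.83% of all genes. The count of lower genes was 47 to 56 when any 1 tumor was left out. Mitochondrial genes took 8.28% to 13.6% of counts in the Palbociclib and 6.78% to 7.22% in the Control tumors, and their part in these values was not tested.

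**Figure D2:**
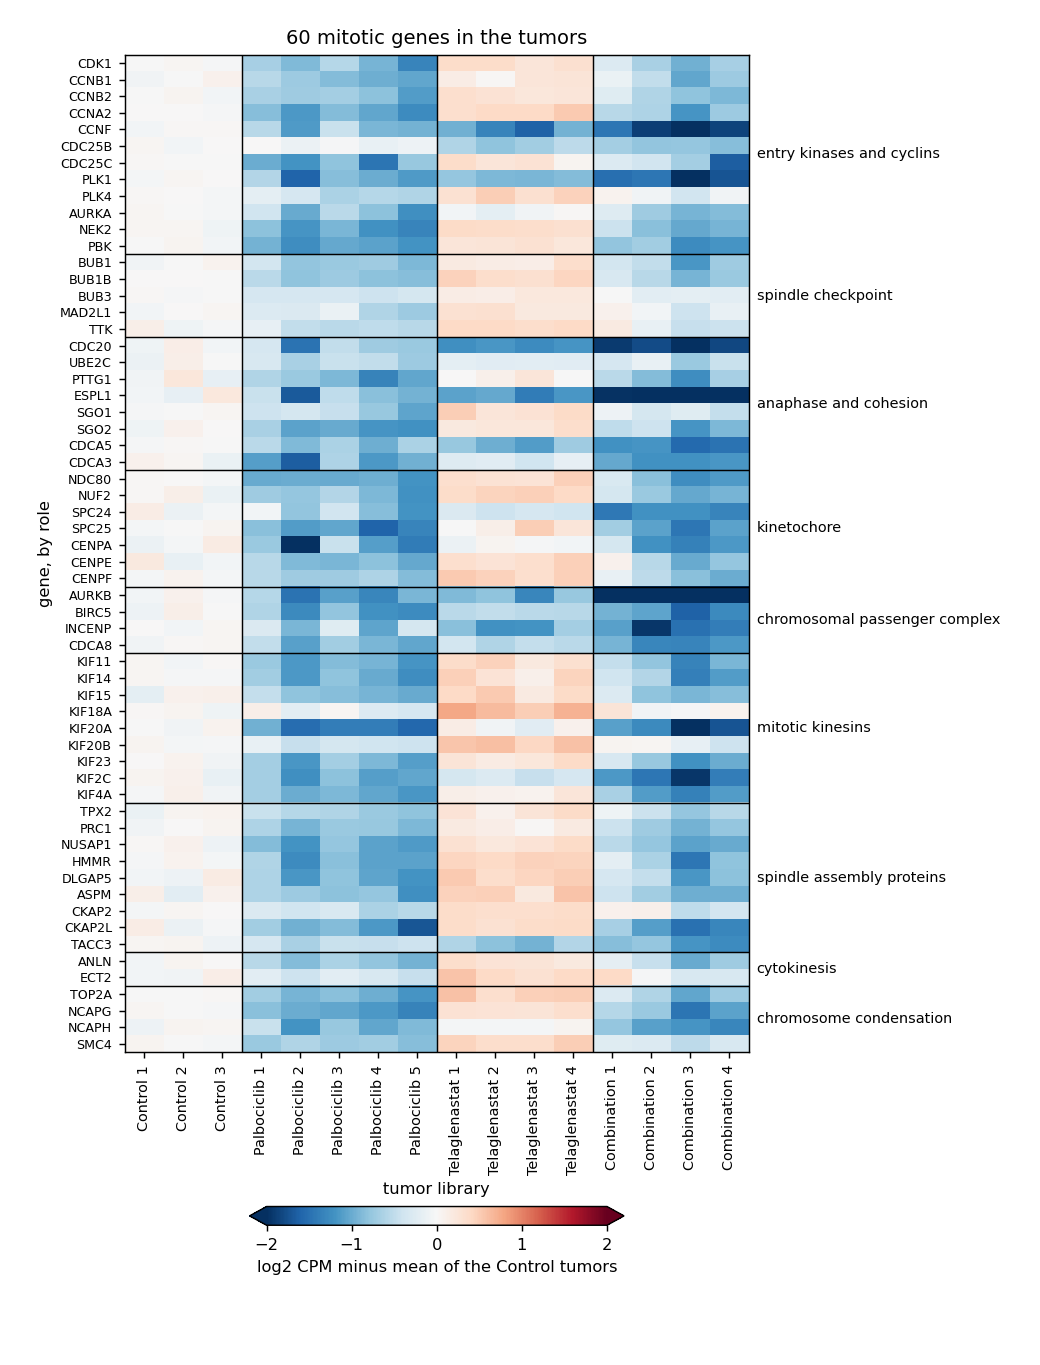
Each row is 1 of the 60 genes, in 9 blocks by role, and each column 1 of the 16 tumors. Color gives log2 CPM minus the mean of the Control tumors, from -2 (blue) to 2 (red); the Palbociclib and Combination columns are blue for nearly every gene, whereas the Telaglenastat columns are pale red except for a set of blue rows such as CDC20, ESPL1, CCNF and PLK1.

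Among the 12 entry kinases and cyclins, 11 fell with Palbociclib. CDK1, the kinase that drives entry into mitosis (chr10:60778331-60794852, plus strand, hg38), stood at 148, 153 and 147 CPM in the Control tumors and at 94.5, 81.2, 101, 78.2 and 59.6 in the Palbociclib tumors. The groups did not overlap (log2 fold change -0.84 ± 0.13, adjusted p = 0.00028). CCNB1 measured 180.4, 188 and 201 CPM in the Control and 129, 114, 104, 96.2 and 91.9 in the Palbociclib tumors (-0.82 ± 0.14, adjusted p = 0.000573). PLK1, the kinase that acts from centrosome maturation to cytokinesis (chr16:23677656-23690367, plus strand), went from 81.96, 86.9 and 84.9 CPM to 56.3, 27.7, 46.9, 42.4 and 38.5 CPM, again without overlap, and tumor 2 was the lowest (-0.99 ± 0.14, adjusted p = 0.000195). AURKA, the centrosomal Aurora kinase, fell by 0.76 ± 0.15 on the log2 scale (adjusted p = 0.00275). NEK2, a centrosome separation kinase, and PBK, a mitotic kinase, showed larger changes of -1.07 and -1.09. CDC25B, a phosphatase that activates CDK1, was the exception of this role, at 137, 128 and 134 CPM in the Control and 133, 122, 130.3, 119.6 and 124 in the Palbociclib tumors, with overlapping groups (-0.08 ± 0.07, adjusted p = 0.627).

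All 5 checkpoint genes fell. BUB1, a kinetochore kinase of the checkpoint, measured 107, 113 and 119 CPM in the Control and 87.2, 65.5, 67.2, 68.6 and 60.2 in the Palbociclib tumors (-0.69 ± 0.13, adjusted p = 0.00166). MAD2L1, the checkpoint protein that holds the anaphase activator CDC20 in check, changed from 106, 111 and 114 to 91.6, 90.04, 100.1, 72.9 and 66.4 CPM (-0.39 ± 0.11, adjusted p = 0.0455). Its call, like those of TTK, CKAP2 and KIF20B, was lost in at least 5 of the 8 fits that left out 1 tumor. BUB3, an abundant checkpoint subunit, stood at 301, 290.4 and 294 against 235, 234, 233, 221 and 231 CPM (-0.36 ± 0.06, adjusted p = 0.000651).

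All 8 anaphase and cohesion genes also fell. CDC20 measured 121, 140.2 and 124 CPM in the Control and 102, 46.1, 90.95, 78.5 and 76.6 in the Palbociclib tumors, of which tumor 2 was the lowest (-0.70 ± 0.15, adjusted p = 0.0047). ESPL1, or separase, the protease that cuts cohesin at anaphase (chr12:53268299-53293643, plus strand), went from 37.8, 35.2 and 45.6 to 28.8, 12.2, 27.5, 21.97 and 20.5 CPM, with the groups apart (-0.82 ± 0.19, adjusted p = 0.00932). UBE2C, the ubiquitin-conjugating enzyme of the anaphase-promoting complex, showed one of the smaller changes (-0.52 ± 0.11, adjusted p = 0.0036), and it has 4 annotated pseudogenes, with which its reads may be shared, so its count is uncertain. The same limit holds for AURKA, CCNB2, NEK2, BUB1, BUB3, CDC20, SGO1, DLGAP5, CKAP2, NCAPG and SMC4, which each have at least 1 pseudogene bearing their name.

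In the kinetochore, which ties chromosomes to microtubules, 6 of 7 genes fell. NDC80, of the microtubule-binding complex, stood at 47.04, 46.8 and 45.2 CPM in the Control tumors and at 22.95, 23.3, 22.98, 23.7 and 20.2 in the Palbociclib tumors (-1.03 ± 0.14, adjusted p = 7.2e-05). Its partners NUF2 and SPC25 changed by -0.82 and -1.15, whereas SPC24, the least abundant subunit, did not pass the test (-0.59 ± 0.19, adjusted p = 0.0779), with Palbociclib tumor 1 at 13.6 CPM inside the Control range. CENPA, the centromeric histone, measured 13.02, 13.83 and 15.9 CPM against 8.50, 3.42, 10.4, 6.61 and 5.36 CPM (-1.03 ± 0.25, adjusted p = 0.0158). The outer kinetochore motor CENPE and the large coiled-coil protein CENPF changed by -0.83 and -0.69.

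In the chromosomal passenger complex, which corrects faulty attachments, the kinase AURKB went from 38.96, 42.6 and 39.5 to 27.3, 14.5, 19.01, 16.4 and 21.3 CPM (-1.03 ± 0.16, adjusted p = 0.000341; chr17:8204733-8210600, minus strand). BIRC5, or survivin, went from 113, 132 and 121 to 80.2, 50.1, 70.7, 52.4 and 50.8 CPM, also without overlap (adjusted p = 0.000114). The scaffold INCENP was the one subunit that did not pass, at 29.6, 28.4 and 30.3 against 23.99, 15.6, 24.8, 14.1 and 23.2 CPM, although its groups did not overlap (-0.53 ± 0.18, adjusted p = 0.1).

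The mitotic kinesins ranged from -1.34 to -0.12. KIF20A, a kinesin of the central spindle (chr5:138178719-138187715, plus strand), showed the strongest decrease of all 60 genes, from 94.9, 91.5 and 101 CPM in the Control tumors to 49.2, 33.1, 36.7, 36.8 and 32.3 CPM in the Palbociclib tumors (-1.34 ± 0.15, adjusted p = 1.42e-05), a 2.53-fold difference, and tumor 1 was the highest of its group. KIF11, which pushes the spindle poles apart, went from 94.3, 88.3 and 93.2 to 54.97, 41.5, 50.6, 48.1 and 40.7 CPM (-0.96 ± 0.13, adjusted p = 6.55e-05). KIF18A, which damps chromosome movement at the metaphase plate, measured 75.1, 76.8 and 69.8 CPM in the Control and 79.9, 64.2, 76.1, 61.3 and 58.8 in the Palbociclib tumors. These groups overlapped, and the difference of -0.12 ± 0.10 did not pass the test (adjusted p = 0.626).

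All 9 spindle assembly genes fell, with TPX2, an activator of AURKA, at -0.63 ± 0.11 and PRC1, which bundles midzone microtubules, at -0.78 ± 0.09. PRC1, NUSAP1, BUB1B and CENPA share exon bases with another annotated gene on their own strand, so their counts are uncertain. Of the cytokinesis pair, the ring component ANLN fell (-0.75 ± 0.12, adjusted p = 0.000489) and the exchange factor ECT2 did not pass (-0.32 ± 0.12, adjusted p = 0.136). All 4 condensation genes fell, among them the condensin subunit SMC4, with changes from 194, 185 and 180.5 to 112, 123, 113, 115 and 103 CPM (-0.72 ± 0.07, adjusted p = 4.12e-06), and TOP2A, the topoisomerase that untangles chromosomes (-0.91 ± 0.12, adjusted p = 5.37e-05). NCAPG, another condensin subunit, changed by -1.06, and both it and SMC4 overlap exons of opposite-strand genes. CCNA2, CCNF, CDC25C, PLK1, MAD2L1, SGO1, SGO2, CDCA3, NUF2 and SPC24 do so over fewer bases. The same holds for KIF18A, KIF20A, KIF23, KIF2C, KIF4A, PRC1, HMMR, CKAP2L and ANLN. Reads of such partners cannot be told apart if the counting ignored strand.

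**Figure D3:**
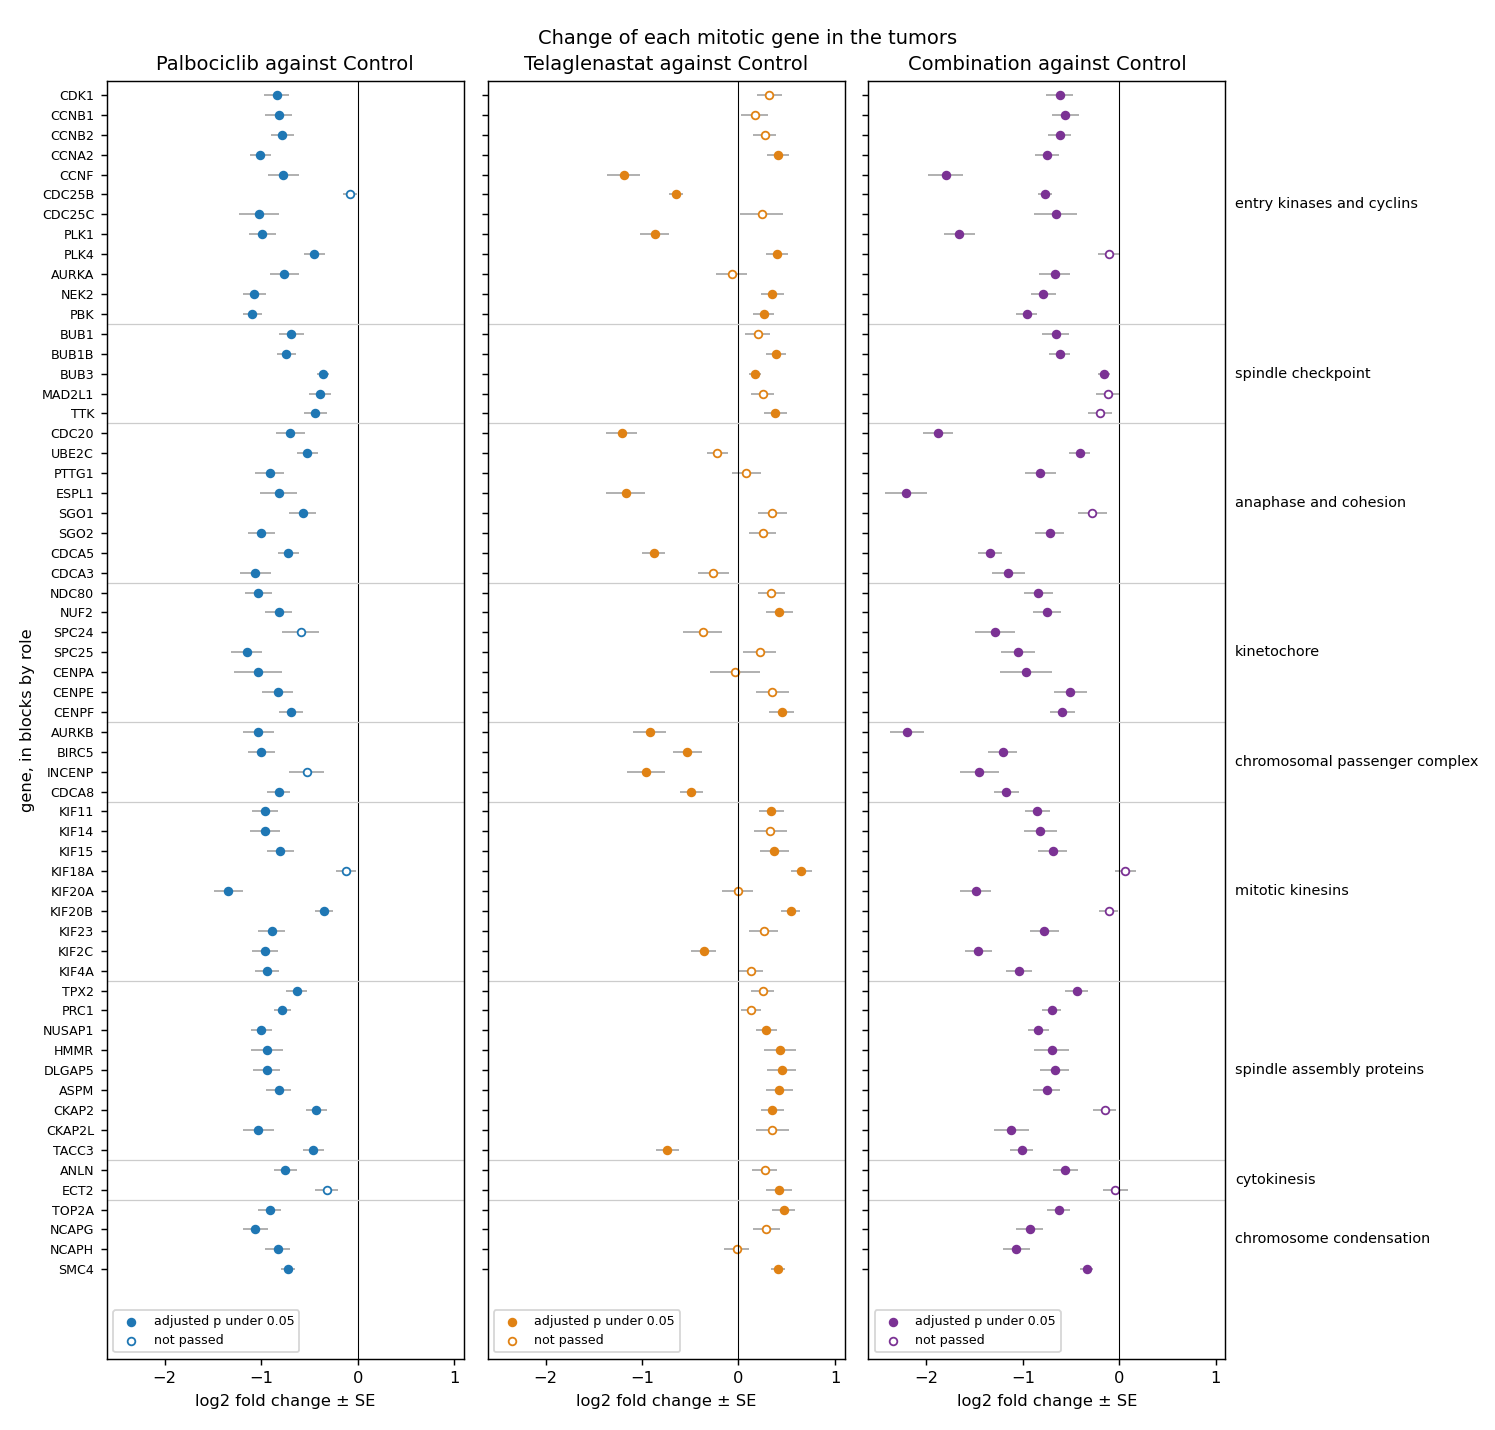
Log2 fold change ± SE of each of the 60 genes (vertical axis, in 9 blocks by role) against the Control tumors for Palbociclib, Telaglenastat and Combination; filled points passed an adjusted p of 0.05 and open points did not. With Palbociclib 55 filled points lie left of 0, with Telaglenastat 12 lie left and 21 right, and with the Combination 52 lie left.

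The effect of blocking glutaminase was asked by comparing Telaglenastat with Control tumors. Of the 60 genes, 12 fell and 21 rose, against 28.5% lower and 22.6% higher of all genes, and both counts moved with the GC content of the genes, as given after these values. The median was 0.25 and the range -1.21 to 0.65. KIF18A showed the largest rise, from 75.1, 76.8 and 69.8 CPM to 127, 114, 104 and 119.5 CPM (0.65 ± 0.11, adjusted p = 4.27e-05). TOP2A rose to 376, 315, 348 and 355 CPM (0.47 ± 0.12, adjusted p = 0.00359) and CENPF to 419.9, 402, 369 and 403 CPM (0.45 ± 0.13, adjusted p = 0.00609). CDK1, at 193, 192, 177 and 186 CPM, lay above every Control tumor but did not pass the test (0.32 ± 0.13, adjusted p = 0.0505). In the other direction, CDC20 stood at 54.7, 56.99, 53.8 and 56.6 CPM (-1.21 ± 0.16, adjusted p = 3.04e-06) and CCNF, the F-box cyclin, went from 44.2, 46.6 and 46.3 to 23.4, 18.4, 14.9 and 23.7 CPM (-1.19 ± 0.17, adjusted p = 1.07e-05). ESPL1 measured 18.7, 19.2, 14.9 and 17.6 CPM and fell by 1.17 ± 0.20 on the log2 scale. All 4 passenger complex genes fell, INCENP to 16.6, 12.7, 12.9 and 18.5 CPM and AURKB to 21.9, 23.1, 16.4 and 23.96 CPM (-0.96 and -0.92, though INCENP turned to 0.12 with its GC trend removed). KIF20A, the gene that had fallen most with Palbociclib, stood at 107, 90.9, 82 and 101 CPM, with groups overlapping (-0.01 ± 0.16, adjusted p = 0.969), and NCAPH and CENPA were as close to 0 (-0.02 and -0.04). The count of genes that rose was 13 without Control tumor 2 and 13 without Control tumor 3.

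These values moved with the GC content of the genes. Across the 60 genes, which range from 34.2% to 59.6% GC in their exons, the log2 fold change with Telaglenastat had a Pearson r of -0.92 with GC content, against 0.02 with Palbociclib and -0.72 with the Combination (n = 60 genes, which share their libraries and are not independent). Of the 36 genes under 45% GC, 21 rose and 0 fell with Telaglenastat (median 0.35), and of the 24 at 45% or more, 0 rose and 12 fell (median -0.36). The trend of log2 CPM on GC content over all genes was 0.246 to 0.257 per SD of GC content in the Control tumors, 0.0968 to 0.359 in the Palbociclib, -0.385 to -0.300 in the Telaglenastat and -0.283 to -0.161 in the Combination tumors. When each library's trend on GC content and gene length was removed, 0 of the 60 genes were lower with Telaglenastat, against 8.33% of all genes, and 1 was higher, against 6.56%, namely CDC25B at 0.40, which had been lower before the correction (-0.65 ± 0.07, adjusted p = 5.46e-07). With Palbociclib 53 were lower under the same correction (4.09% of all genes). Whether the GC trend arose in the RNA or in the libraries was not tested. The summed fibroblast and epithelial markers were also lowest in the Telaglenastat tumors, and their part in these values was not tested.

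**Figure D4:**
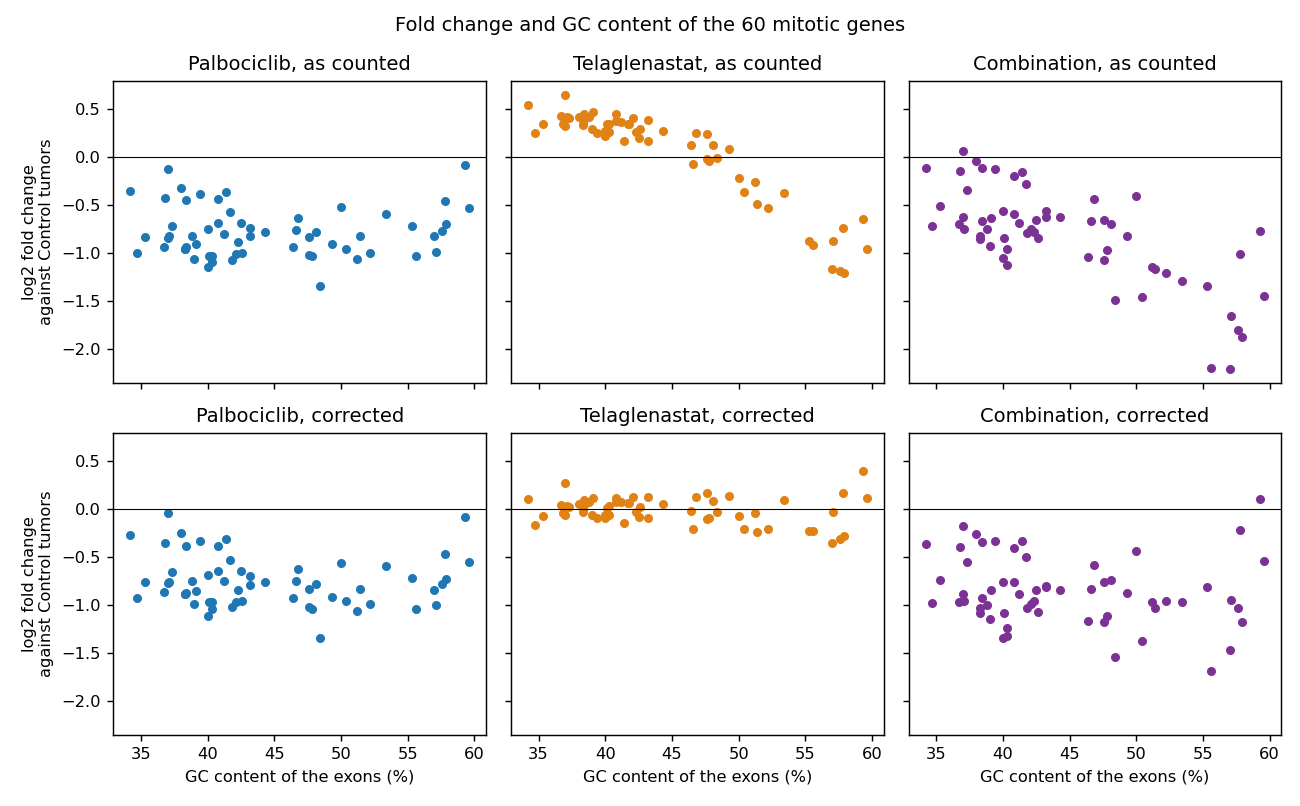
Log2 fold change against Control tumors (vertical axes) and GC content of the exons in percent (horizontal axes) for the 60 genes, as counted (top) and after removal of each library's trend on GC content and gene length (bottom). With Telaglenastat the points fall from 0.65 to -1.21 along the GC axis as counted and lie between -0.35 and 0.40 after correction, whereas with Palbociclib they stay below 0 in both panels.

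In the Combination tumors 52 of the 60 genes fell and 0 rose relative to Control, against 26.9% lower and 17.6% higher of all genes; DESeq2 called 51 lower and 0 higher. The median was -0.75 and the range -2.21 to 0.06, with 18 genes at least 2-fold lower, and in 50 genes every Combination tumor lay below every Control tumor (28.5% of all genes). With the GC trend and the length trend removed, 56 were lower, against 13.1% of all genes. By role, the passenger complex had the lowest median (-1.33, all 4 genes lower) and the checkpoint the one nearest 0 (-0.20, 3 of 5 lower). Mitochondrial genes took 13.2% to 14.8% of counts in the Combination and 6.78% to 7.22% in the Control tumors, and their part in these values was not tested. Both the Palbociclib and the Combination comparison use the same 3 Control tumors, so their values are given side by side and not as independent evidence.

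ESPL1 fell most, to 10.01, 8.21, 6.53 and 9.52 CPM from 37.8, 35.2 and 45.6 CPM in the Control tumors (-2.21 ± 0.22, adjusted p = 1.84e-07), a 4.61-fold difference. AURKB fell to 9.85, 9.85, 7.53 and 8.03 CPM (-2.20 ± 0.18, adjusted p = 4.41e-08) and CDC20 to 34.2, 37.2, 32.2 and 36.3 CPM (-1.88 ± 0.16, adjusted p = 6.12e-08), each without overlap with any other tumor group. CCNF followed at 16.8, 12.4, 10.8 and 12.7 CPM (-1.80 ± 0.18), and PLK1 at 29.7, 31.1, 21.2 and 25.6 CPM (-1.66 ± 0.16). All 5 of these genes have 55.6% GC or more, and with the GC correction their changes were -1.47 (ESPL1), -1.69 (AURKB), -1.18 (CDC20), -1.03 (CCNF) and -0.95 (PLK1), each nearer to 0. KIF20A, at 48.4% GC, measured 45.1, 39.4, 23.4 and 28.9 CPM (-1.49 ± 0.16, adjusted p = 6.48e-07) and kept -1.54 under the correction. CDK1 was at 123, 95.1, 77.1 and 94.6 CPM (-0.62 ± 0.14, adjusted p = 0.000997) and CCNB1 at 174, 135, 92.7 and 115 CPM (-0.56 ± 0.14, adjusted p = 0.00348).

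Among the structural genes, NDC80 stood at 37.5, 25.98, 19.6 and 21.1 CPM in the Combination tumors (-0.84 ± 0.15, adjusted p = 0.000117) and SPC24, which had not passed with Palbociclib, at 5.24, 6.12, 6.11 and 5.65 CPM (-1.29 ± 0.21, adjusted p = 5.84e-05). INCENP measured 13.82, 7.61, 10.51 and 11.3 CPM (-1.45 ± 0.20, adjusted p = 1.05e-05), although with the GC correction the change was -0.54. KIF11 stood at 65.8, 53.2, 36.5 and 48.7 CPM, BIRC5 at 63.1, 58.4, 39.6 and 50.3 CPM and TOP2A at 209, 165, 123 and 152 CPM (-0.85 ± 0.13, -1.21 ± 0.15 and -0.63 ± 0.12). Combination tumor 1 was the highest of its group for most of these genes. The 8 genes that did not pass were KIF18A (0.06), ECT2 (-0.04), KIF20B (-0.11), PLK4 (-0.11), MAD2L1 (-0.12), CKAP2 (-0.15), TTK (-0.20) and SGO1 (-0.28). All 8 lie under 45% GC. KIF18A at 88.3, 70.5, 72.3 and 77.5 CPM and ECT2 at 232, 173, 142 and 142 CPM overlapped the Control tumors, and neither had passed with Palbociclib. BUB3 passed narrowly (-0.16 ± 0.06, adjusted p = 0.0429) and lost the call in 6 of 7 fits that left out 1 tumor.

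Adding Palbociclib to Telaglenastat gave the more uniform contrast. Against Telaglenastat tumors, 56 of the 60 genes were lower in the Combination tumors and 0 higher, where 9.89% of all genes were lower and 8.93% higher. The median was -0.90, 25 genes were at least 2-fold lower, and in 54 every Combination tumor lay below every Telaglenastat tumor (11.1% of all genes). The 60 changes had an r of 0.29 with GC content (n = 60 genes), and 58 were lower with the GC correction, against 7.49% of all genes. KIF20A changed most (-1.48 ± 0.16, adjusted p = 1.86e-06), followed by CKAP2L, a spindle protein (-1.47 ± 0.17), AURKB (-1.28 ± 0.18) and SPC25 (-1.27 ± 0.17). Mitochondrial genes took 6.23% to 9.07% of counts in the Telaglenastat and 13.2% to 14.8% in the Combination tumors, 5 of 7 epithelial and 3 of the 5 fibroblast markers tested were higher in the latter, and their part in these values was not tested. Kinesins (9 of 9) and kinetochore genes (7 of 7) were all lower, with medians of -1.10 and -1.04. The 4 genes that did not pass were CDC25B (-0.12), UBE2C (-0.19), TACC3, a microtubule protein (-0.27), and INCENP (-0.49).

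Adding Telaglenastat to Palbociclib gave a smaller and mixed contrast. Against Palbociclib tumors, 12 genes were lower (27.5% of all genes) and 9 higher (20.1%) in the Combination tumors, with a median of 0.11 that turned to -0.09 with the GC correction. ESPL1 (-1.39 ± 0.20, adjusted p = 1.37e-05), CDC20 (-1.18 ± 0.15, adjusted p = 2.62e-06) and AURKB (-1.16 ± 0.17, adjusted p = 1.65e-05) fell most, each with every Combination tumor below every Palbociclib tumor, and CCNF and INCENP followed (-1.03 and -0.92, the latter at 0.01 with the GC correction). The largest rise was that of SMC4, from 112, 123, 113, 115 and 103 to 157, 154, 129.5 and 149 CPM (0.38 ± 0.07, adjusted p = 0.000113). All 9 that rose were under 45% GC and all 12 that fell were at 45% or more (r of -0.85 with GC content, n = 60 genes). With the GC correction 4 were lower (CDC20, ESPL1, AURKB and KIF2C, a microtubule-depolymerising kinesin), against 8.08% of all genes, and 0 were higher (7.23%). The smallest differences were those of BUB1 (0.03 ± 0.12) and CENPA (0.06 ± 0.25). The 9 that rose became 6 without Palbociclib tumor 2, 3 without Palbociclib tumor 4 or 5 or Combination tumor 1 or 2, 16 without Palbociclib tumor 1 and 20 without Combination tumor 3.

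Whether the lower levels lasted in cells grown without drug was asked in the derived cultures. None of the 60 genes passed the test in any of 5 comparisons between culture groups, and among all genes the share that passed against Control was 0.0% with Palbociclib, 0.0% with Telaglenastat and 0.00715% with the Combination, and 0.0% for the Combination against Palbociclib and 0.0% against Telaglenastat (edgeR, either direction). In the same order, 3, 6, 2, 1 and 7 of the 60 genes had an unadjusted p under 0.05, and DESeq2 called 0 in each. Where no gene differs, a share of 0.05 passes that unadjusted threshold by chance. The share of all genes that passed it is not given here, so no result is drawn from these counts. Without Telaglenastat culture 1, 3 genes (BIRC5, CDCA5 and SPC24) passed between Combination and Telaglenastat cultures. The medians over the 60 genes were 0.11, -0.11, -0.03, -0.13 and 0.02. CDK1 measured 275, 298 and 239.8 CPM in the Control cultures, 288, 282 and 323 in those from Palbociclib tumors, 212, 237 and 363 in those from Telaglenastat tumors and 240.0, 289 and 263 in those from Combination tumors. Each culture group overlapped the Control cultures for this gene. KIF20A measured 148, 139.5 and 129 CPM in the Control cultures, against 139, 145 and 131 in the Palbociclib, 103, 146 and 118 in the Telaglenastat and 113, 133 and 122 in the Combination group, again with overlap.

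The GC-rich genes that were lowest in the Combination tumors also varied among the cultures. ESPL1 measured 49.3, 36.95 and 41.6 CPM in the Control and 25.5, 30.6 and 34.3 CPM in the Combination cultures, without overlap (-0.50 ± 0.34, adjusted p = 0.701). AURKB measured 59.8, 38.42 and 57.1 CPM and 33.8, 33.4 and 38.35 CPM in these groups, which were barely apart (-0.56 ± 0.26, adjusted p = 0.681). The share of all genes without overlap between these culture groups is not given here. No result is drawn from the separation of ESPL1 or AURKB. In the Telaglenastat cultures AURKB stood at 33.8, 80.5 and 42.8 CPM, and replicate 2 was the highest culture of all for this gene, as it was for CDC20 at 205.5 CPM. KIF18A, which had risen in the Telaglenastat tumors, was at 108, 114 and 132 CPM in the Telaglenastat and 114, 127 and 118 CPM in the Control cultures (-0.02 ± 0.11, adjusted p = 0.979). The fold changes in cultures had an r with GC content of -0.80 (Palbociclib), 0.21 (Telaglenastat) and -0.80 (Combination), over n = 60 genes.

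The difference between the tumor and the culture effect was tested in 1 fit of all 28 libraries. For Palbociclib, the tumor effect was below the culture effect in 36 of the 60 genes and above it in 0, against 1.03% and 0.356% of all genes, with a median difference of -0.88; DESeq2 called 47. SPC25 (-1.49 ± 0.28, adjusted p = 0.00496), KIF20A (-1.34 ± 0.23, adjusted p = 0.00214) and CENPA (-1.32 ± 0.34, adjusted p = 0.0448) showed the largest differences. CENPA lost its call in 11 of 14 fits that left out 1 library. With the GC correction 38 were lower (0.866% of all genes). The 36 became 34 without Palbociclib tumor 2, 17 without Control culture 3, 21 without Control culture 1 and 22 without Palbociclib culture 3.

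For the Combination, the tumor effect was below the culture effect in 18 genes and above it in 0, against 0.795% and 2.11% of all genes, with a median difference of -0.66. ESPL1 (-1.61 ± 0.42, adjusted p = 0.0362), AURKB (-1.54 ± 0.33, adjusted p = 0.0139) and PLK1 (-1.28 ± 0.28, adjusted p = 0.0135) showed the largest differences, and 36 were lower with the GC correction (1.47% of all genes). ESPL1 lost its call in 10 of 13 fits that left out 1 library. The 18 became 7 to 11 when any 1 of the Control tumors, Control cultures, Combination cultures, or Combination tumors 2 or 3 was left out, and 28 without Combination tumor 1. For Telaglenastat, 5 were lower and 23 higher in the tumor effect (18.5% and 15.6% of all genes), and 0 were lower and 0 higher with the GC correction (3.46% and 1.73%). The 28 became 10 without Control culture 2 and 19 without Telaglenastat culture 2.

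**Figure D5:**
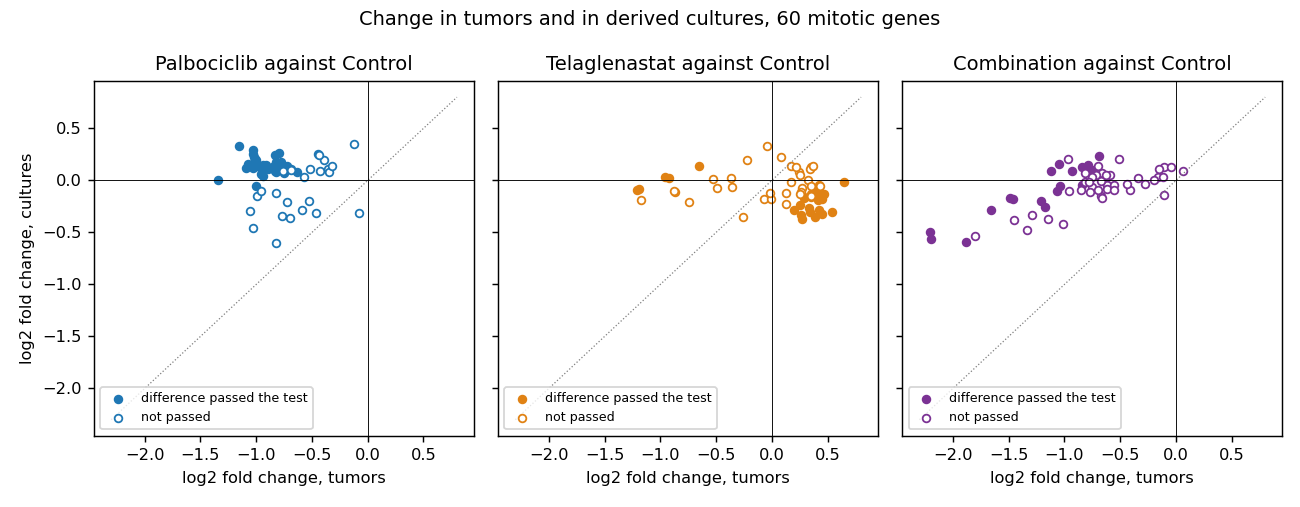
Log2 fold change against Control in the cultures (vertical axes) and in the tumors (horizontal axes) for the 60 genes; the dotted line marks equal change, and filled points passed the test of the difference between tumor and culture effect. With Palbociclib the tumor values reach -1.34 while the culture values stay between -0.60 and 0.35, and 36 points are filled.

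Without drug, most of the genes were lower in tumors than in cultures. Between Control tumors and Control cultures 52 of the 60 were lower and 0 higher, against 22.8% and 23.1% of all genes, with a median of -0.92 and 23 genes at least 2-fold lower. The fibroblast markers summed to 173 to 210 CPM in the Control tumors against 7.88 to 9.37 in the Control cultures, and the epithelial markers to 2820 to 3360 against 1410 to 1930 CPM, and their part in this difference was not tested. CDK1, at 148, 153 and 147 CPM in the tumors and 275, 298 and 239.8 CPM in the cultures, changed by -1.01 ± 0.17, adjusted p = 3e-05, and HMMR, a spindle protein, showed the largest difference of the 60 (-1.42 ± 0.18, adjusted p = 3.07e-07). TPX2 stood at 238, 269 and 273 against 509.7, 555 and 491 CPM (-1.15 ± 0.14, adjusted p = 1.4e-07). The 8 that did not pass were all at 50% GC or more, among them INCENP (-0.09), CCNF (-0.10) and UBE2C (-0.20), and with the GC correction 58 were lower (20.7% of all genes).

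Other genes of the same processes were counted from lists chosen by function. Of 28 further genes of late cell cycle, 26 fell with Palbociclib, 26 fell with the Combination, and 12 fell and 6 rose with Telaglenastat. Over all genes the shares were 3.6% lower with Palbociclib, 26.9% lower with the Combination, and 28.5% lower and 22.6% higher with Telaglenastat. With the GC correction 26, 27, and 2 and 1 of the 28 passed in these directions. MKI67, the Ki-67 proliferation antigen, had log2 fold changes of -1.05 ± 0.11 with Palbociclib, 0.08 ± 0.12 with Telaglenastat and -1.22 ± 0.12 with the Combination. HMGB2, a chromatin protein, changed by -1.21 ± 0.12, 0.32 ± 0.13 and -1.03 ± 0.13 in the same order. Of the transcription factors known to drive these promoters, FOXM1 changed by -1.07 ± 0.17, -0.99 ± 0.18 and -2.01 ± 0.19, and MYBL2 by -0.89 ± 0.20, -1.84 ± 0.23 and -2.75 ± 0.24, while LIN9 and LIN54 of the MuvB core did not pass in any of the 3. With the GC correction the Telaglenastat values were -0.31 for FOXM1, which then did not pass (adjusted p = 0.265), and -0.67 for MYBL2 (adjusted p = 0.0167). The Combination values above are not corrected. The trend on GC content was -0.283 to -0.161 in the Combination and 0.246 to 0.257 in the Control tumors, so the size of these falls is uncertain. LIN52, another MuvB subunit, passed under the GC correction in Palbociclib (-0.65, adjusted p = 0.0113) and Combination tumors (-0.75, adjusted p = 0.00211). It did not pass in Telaglenastat tumors (-0.17). The list of these regulators held 11 genes. After that correction Palbociclib lowered 4 of them and raised 0, against 4.09% and 3.88% of all genes. Telaglenastat lowered 2 and raised 0 (8.33% and 6.56%), while the Combination lowered 5 and raised 1 (13.1% and 13.2%).

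The other complexes of mitosis are given by the same counts, to be read against the same shares over all genes. The share of all genes that rose with the Combination was 17.6%. Of 17 subunits and partners of the anaphase-promoting complex, 2 fell with Palbociclib, the inhibitor FBXO5 (-0.81 ± 0.14) and the ubiquitin-conjugating enzyme UBE2S (-0.62 ± 0.17), and with the Combination 7 fell and 4 rose. Of 21 inner kinetochore and MIS12 complex genes, 9 fell with Palbociclib and 10 fell with the Combination, where 1 rose. Of 12 cohesin genes, 6 fell with Palbociclib, among them RAD21, the subunit that separase cuts (-0.52 ± 0.08), and 4 fell and 1 rose with the Combination. With Telaglenastat 10 of these 12 rose and 1 fell, which became 1 and 0 with the GC correction, while with the Combination 7 fell and 0 rose under it. Of the 5 other condensin subunits, 3 fell with Palbociclib, with NCAPD2 at -0.74 ± 0.09, and 4 fell with the Combination. Of 20 tubulins and nucleation factors, 7 fell with Palbociclib, among them TUBA1B at -0.87 ± 0.15, and 12 fell and 2 rose with the Combination. Of 11 brakes and phosphatases of mitotic entry, 4 fell with Palbociclib, with WEE1, the kinase that holds CDK1 inactive, at -0.73 ± 0.08, and 6 fell and 2 rose with the Combination. With the GC correction 13.1% of all genes were lower and 13.2% higher in the Combination tumors. Of the anaphase-promoting complex list 7 then fell and 2 rose, and of the inner kinetochore list 13 fell and 0 rose. In the same order, the condensin list gave 5 and 0, the tubulin list 9 and 0 and the brakes 6 and 1.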

How the data were processed

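Poly(A) RNA of 16 tumors and 12 cultures was sequenced as single-end, strand-marked libraries. Per the labels, the authors used CASAVA 1.8, the aligner STAR and the hg38 build, and they deposited raw read counts per gene; the annotation release and the strand setting of the counting are not given in the sources used here. Replicates were not pooled.

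Counts were filtered with filterByExpr (minimum count 10), scaled by TMM and tested with edgeR 4.0.16 (R 4.3.3), by quasi-likelihood with Benjamini-Hochberg adjustment over all genes of a fit and a threshold of 0.05. There was 1 fit for the 16 tumors (14848 genes), 1 for the 12 cultures (13985 genes) and 1 for all 28 libraries (15466 genes), the last for differences between tumor and culture effects. CPM values used TMM sizes, and log2 CPM a prior count of 2. Depth was 6273834 to 13815675 counts, and replicate spread, not counting error alone, set the precision. Alternatives were DESeq2 1.42.0, its size factors, other filters, other sample sets, a replicate block, removal of each library's trend on GC content and gene length, and leaving out each library. GC content, length and positions came from GENCODE 29 (57940 of 58278 genes matched), and promoters from RefSeq GRCh38.p14.

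The 60 genes and all lists were chosen with earlier results of these data known. Genes named were 29 representatives of the roles and, in each comparison, the 5 with the largest change past the threshold and the 3 with the smallest change. Genes named because they did not pass, and examples from the other lists, were chosen after their values were seen. No samples were left out.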

Additional observations from a re-analysis of the deposited data

Results flagged for a closer look

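The tumor effect differed from the culture effect, by the test of that difference, in each drug comparison. For Palbociclib the difference was below 0 in 36 genes (1.03% of all genes). The largest values were those of SPC25 (-1.49), KIF20A (-1.34), CENPA (-1.32), NDC80 (-1.29) and CDC25C (-1.25). Of these, CENPA lost its call in 11 of 14 fits that left out 1 library. For Telaglenastat it was below 0 in 5 genes (18.5% of all genes) and above 0 in 23 (15.6%), and 0 passed in either direction with the GC correction. The largest values were those of CDC20 (-1.03), CCNF (-1.02), KIF20B (0.94), INCENP (-0.90) and CENPF (0.87), all on the log2 scale and along the GC content of the genes. INCENP lost its call in 8 of 13 fits that left out 1 library. For the Combination the difference was below 0 in 18 genes (0.795% of all genes), led by ESPL1 (-1.61), AURKB (-1.54), PLK1 (-1.28), KIF20A (-1.21) and CDC20 (-1.19). The call of CDC20 was lost in 13 of 13 fits that left out 1 library, and that of ESPL1 in 10 of 13.

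In 5 of 93 gene and group combinations with 4 or 5 tumors, 1 tumor lay far from the others, where chance alone gives about 1 in 20. In the Palbociclib group these were the lowest tumor for NDC80 (20.2 CPM), the highest for KIF20A (49.2 CPM) and the lowest for BUB3 (220.5 CPM). In the Combination group they were the highest tumors for CENPA (11.1 CPM) and BUB3 (292 CPM). The causes were not tested.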

How the results depend on the processing

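The counts of genes lower with Palbociclib, with the Combination and between Combination and Telaglenastat stayed within 1.5 times under every alternative run, as did those lower in Control tumors than in Control cultures except under the block with the GC correction (32). Counts that moved further were, without a filter, 34 higher with Telaglenastat, 19 higher between Combination and Palbociclib, 1 and 2 between cultures (Combination against Control and against Telaglenastat) and 44 for the Combination's difference between tumor and culture effects. With DESeq2 the second of these was 14 and the last 31. In fits of only the groups compared, 35 were higher with Telaglenastat and 3 higher between Combination and Palbociclib, which became 20 in 1 fit of all 28 libraries.

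With the GC correction, 0 genes were lower and 1 higher with Telaglenastat, 4 lower and 0 higher between Combination and Palbociclib, and 0 and 36 passed for the differences between tumor and culture effects of Telaglenastat and the Combination. Signs turned for the medians with Telaglenastat (-0.02) and between Combination and Palbociclib (-0.09, or -0.12 with the replicate block as well). Among the genes named by rule for a comparison, signs turned with Telaglenastat for KIF11 (-0.02), INCENP (0.12) and BUB3 (-0.14), between Combination and Palbociclib for PLK1 (0.05), INCENP (0.01), ECT2 (-0.01) and BUB3 (-0.02), and in Telaglenastat's tumor and culture difference for INCENP (0.25) and CDC20 (0.04). The causes were not tested.

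Replicate numbers did not pair the samples: same-numbered tumors had correlations of -0.13 to 0.09 (0 of 21 pairs over 0.1) and cultures of -0.42 to 0.14 (3 of 18). With the replicate block, 3 genes were higher between Combination and Palbociclib, and 22 and 11 passed for the differences between tumor and culture effects of Palbociclib and the Combination. With the replicate block and the GC correction together, 0 were lower and 1 higher with Telaglenastat, 5 lower and 0 higher between Combination and Palbociclib, and 23, 0 and 33 passed for the differences of Palbociclib, Telaglenastat and the Combination. Among the same genes, signs then turned with Telaglenastat for KIF11 (-0.02), INCENP (0.14) and BUB3 (-0.13), between Combination and Palbociclib for PLK1 (0.01), MAD2L1 (-0.06), INCENP (0.03), ECT2 (-0.05) and TOP2A (-0.04), in Telaglenastat's difference for INCENP (0.28) and CDC20 (0.06), and between Control tumors and cultures for BUB3 (0.03).

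With 1 library left out at a time, the genes higher with Telaglenastat numbered 13 to 17, those higher between Combination and Palbociclib 3 to 20, those that passed between Combination and Telaglenastat cultures 0 to 3, and those for the differences between tumor and culture effects 17 to 42 (Palbociclib), 10 to 38 (Telaglenastat) and 7 to 28 (Combination).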
